A study of Mus musculus with 6 samples.

Results

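Csdc2, Carhsp1, Ybx1, Ybx3, Cirbp and Rbm3 encode small RNA-binding proteins that either carry a cold-shock domain or are induced by mild cold. They were found by gene symbol among the 54532 gene rows of heart RNA-seq from Mc4r KO and WT mice, and all 6 were present and passed the filter on low values. Csdc2 was selected on its FPKM in these 6 libraries, which were higher in the Mc4r KO hearts, so its difference between the groups is given as a description with no test. The other 5 genes were added for their protein family, with results of these data already known. The hearts came from 3 mice with the genotype Mc4r knockout and 3 WT mice, all males aged 12 weeks, with 1 polyadenylated RNA library for each mouse. All were littermates from matings of heterozygotes on the C57B/6/N background, fed standard chow and kept at a single room temperature. The Mc4r KO line was purchased and lacks the melanocortin-4 receptor, a receptor of the hypothalamus for appetite and energy use, in every tissue, and how the allele was made is not given in the sources used here. The tissue is heart in the labels, muscle in the sample titles and left ventricle in the study's discussion. Body temperature and the time of day at collection are not given in the sources used here.

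The cold-shock domain is an ancient barrel-shaped fold that binds single-stranded RNA and DNA. Bacteria make proteins of this fold in the cold, but most mammalian genes that carry it are named for the fold and not for a response to temperature. Ybx1 and Ybx3 are Y-box proteins, which coat messenger RNAs and control their translation and stability. Csdc2 and Carhsp1 are short proteins with little beyond the domain. Cirbp and Rbm3 belong to another family, with a single RNA recognition motif and a glycine-rich tail. Their RNAs are known to rise when cells are mildly cooled and to fall when cells are warmed, and Cirbp RNA follows the daily rhythm of body temperature in mice.

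Both folds touch RNA through a short run of glycine and aromatic residues, and the coding sequence of that run shows which members resemble each other. The lines below give 45 coding bases from 5′ to 3′, read from the GENCODE M21 transcripts (build GRCm38), with the 15 bases of the core in capitals.
Csdc2: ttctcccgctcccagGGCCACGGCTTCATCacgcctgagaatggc
Carhsp1: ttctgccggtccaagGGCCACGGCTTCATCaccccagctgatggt
Ybx1: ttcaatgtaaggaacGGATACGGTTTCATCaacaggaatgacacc
Ybx3: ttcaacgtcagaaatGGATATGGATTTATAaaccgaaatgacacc
Cirbp: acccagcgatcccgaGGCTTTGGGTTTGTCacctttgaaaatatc
Rbm3: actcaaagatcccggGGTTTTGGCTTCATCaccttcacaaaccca
The stretch of Csdc2 lies in a coding exon on the plus strand at chr15:81948623-81948667, and that of Carhsp1 on the minus strand at chr16:8663616-8663660. Csdc2 and Carhsp1 shared 36 of the 45 bases and all 15 of the core, while Csdc2 shared 20 of 45 with Ybx1 and 20 of 45 with Ybx3. Ybx1 and Ybx3 shared 35 of 45 bases and 11 of the 15 core bases, fewer of the core than the 12 that Ybx1 shared with Csdc2 or with Carhsp1, and both stretches run across an exon junction. Cirbp, on the plus strand at chr10:80170039-80170083, and Rbm3, on the minus strand at chrX:8144612-8144656, shared 30 of 45 bases and 11 of the 15 core bases. Over the 45 bases, though not over the core alone, the closest pairs with a cold-shock domain were thus Csdc2 and Carhsp1, and Ybx1 and Ybx3. Cirbp and Rbm3 are the only members with the other fold, so their pair has no other to be ranked against.

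Levels are FPKM (fragments on a gene divided by its length and by the depth of the library), with the authors' own scaling of each library. FPKM times gene length came out as whole reads for 100% of the values (within 0.01 of a read), which gave 14767929 to 16047003 reads on genes in the WT libraries and 14691076 to 15649074 in the Mc4r KO libraries. Mc4r itself had 2 reads in WT replicate 3 and 0 in the other 5 libraries, so its level in heart cannot check the genotype. Genes with a mean of at least 0.1 FPKM over the 6 libraries, 18035 in all, were tested with limma on log2(FPKM + 0.1), and a gene was called at a Benjamini-Hochberg adjusted p under 0.05 with an absolute log2 fold change above 0.75. Of these genes 0.46% (83) were called, 57 higher (0.316%) and 26 lower (0.144%) in the Mc4r KO hearts. When the libraries were instead scaled to the FPKM outside the mitochondrial chromosome, 16 were called higher and 25 lower, and the median log2 fold change over all genes moved from -0.011 to -0.19. The mitochondrial share of summed FPKM was 47.1% to 59.3% in WT and 43.0% to 46.6% in Mc4r KO. The summed markers of cardiomyocytes were 10213 to 10637 FPKM in WT and 12818 to 14190 in Mc4r KO, with 0 of 5 markers called, and those of fibroblasts 150.3 to 157 and 115 to 126, with 0 of 4 called. The cardiomyocyte difference in summed FPKM came mainly from Actc1, with means of 5178 FPKM in WT and 7539 in Mc4r KO. All 5 cardiomyocyte markers had a positive log2 fold change, and 3 were higher in Mc4r KO without overlap, beside 14.1% of all genes tested. The fibroblast difference came mainly from Dcn, with means of 119 and 82.4. Of the 4 fibroblast markers 2 had a negative log2 fold change (Dcn -0.53, Pdgfra -0.37) and 2 a positive one (Col1a1 0.44, Col1a2 0.031). Atrial markers summed to 28.6, 95.2 and 747 FPKM in WT (replicates 1 to 3), so that WT replicate 3 stood apart, and to 136, 6.29 and 43.7 in Mc4r KO. Skeletal muscle markers summed to 1.49 FPKM at most, with Myh4, the fast myosin, at 0 reads in all 6 libraries. In RNA from undivided tissue fewer cells of a type and less RNA per cell cannot be told apart.

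**Figure D1:**
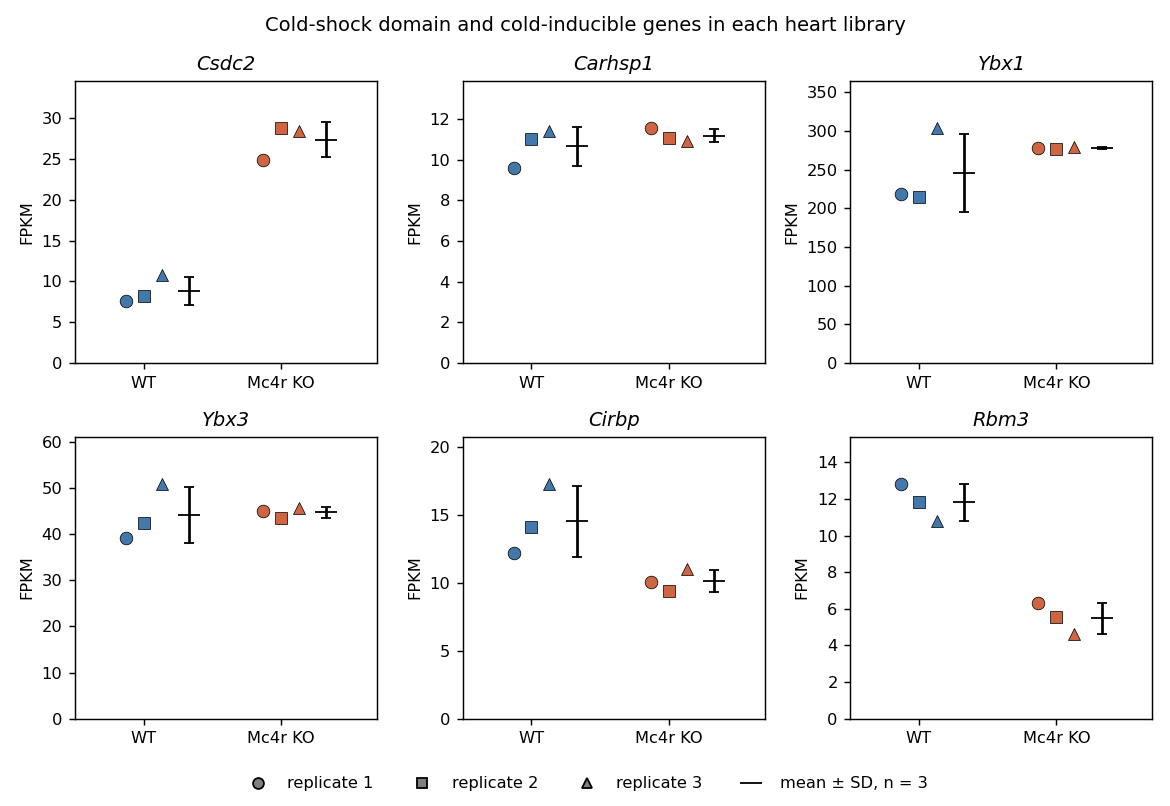
FPKM of each gene in the 6 libraries, with WT in blue and Mc4r KO in orange, marker shapes for replicates 1 to 3, and the bar beside each group giving the mean ± SD (n = 3). Csdc2 is higher in the 3 Mc4r KO libraries (24.9 to 28.8) than in the 3 WT libraries (7.61 to 10.8), Rbm3 and Cirbp are lower in all 3, and the groups overlap for Carhsp1, Ybx1 and Ybx3.

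Csdc2 was about 3-fold more abundant in the Mc4r KO hearts. Csdc2 (ENSMUSG00000042109, chr15:81936759-81950941 on the plus strand), also called PIPPin and best known as an RNA-binding protein of the brain, stood at 7.61, 8.21 and 10.8 FPKM in the WT libraries and at 24.9, 28.8 and 28.4 FPKM in the Mc4r KO libraries, replicates 1 to 3 in order. The lowest Mc4r KO library lay well above the highest WT library, which was replicate 3. The means were 8.88 ± 1.701 (SD, n = 3) and 27.4 ± 2.12 FPKM, a ratio of 3.08 and a log2 fold change of 1.63 (SE 0.14). The values rested on 496, 545 and 851 reads in WT and 1789, 2023 and 2105 in Mc4r KO. Among the 11297 genes with a mean of at least 1 FPKM, 49 had a higher log2 fold change. Of the 50-base words in its transcripts, 0.412% also occur in transcripts of other genes. With the mitochondrial share as a covariate the log2 fold change was 1.27, still higher in Mc4r KO.

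Carhsp1, the member most like Csdc2 in sequence, did not pass the test. Carhsp1 (ENSMUSG00000008393, chr16:8658580-8672155 on the minus strand) encodes a substrate of the calcium-dependent phosphatase calcineurin that is known to stabilise Tnf RNA. It stood at 9.58, 11.01 and 11.4 FPKM in WT and at 11.6, 11.1 and 10.9 FPKM in Mc4r KO, replicates 1 to 3 in order. The groups overlapped, and the means of 10.7 ± 0.960 and 11.2 ± 0.325 FPKM gave a log2 fold change of 0.073 (95% interval -0.15 to 0.30, limma adjusted p = 0.702). The whole interval lies inside the fold threshold of 0.75. In WT the Csdc2 to Carhsp1 ratio of FPKM was 0.794, 0.745 and 0.948 in replicates 1, 2 and 3, so Carhsp1 was the more abundant. In Mc4r KO the ratio was 2.16, 2.60 and 2.59, so the order of the pair was the opposite in all 3 libraries. Because Csdc2 was selected for its higher values in Mc4r KO and Carhsp1 differed little, this opposite order largely restates that choice.

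Ybx1 and Ybx3 were the most abundant members and did not pass the test. Ybx1 (ENSMUSG00000028639, chr4:119277981-119294604 on the minus strand), the main protein that packages cytoplasmic messenger RNA, stood at 219, 214 and 304 FPKM in WT and at 278, 276 and 279 FPKM in Mc4r KO, replicates 1 to 3 in order. The Mc4r KO libraries sat close together between WT replicates 1 and 2 on the low side and WT replicate 3 on the high side. The means were 245 ± 50.4 and 278 ± 1.56 FPKM, and the log2 fold change was 0.20 (95% interval -0.14 to 0.54, limma adjusted p = 0.487). Without WT replicate 3 it was 0.36 with a limma adjusted p of 0.0300, which stayed under the fold threshold. Ybx3 (ENSMUSG00000030189, chr6:131364855-131388476 on the minus strand), a Y-box protein abundant in muscle that binds the tight junction protein ZO-1, had 39.2, 42.5 and 51.0 FPKM in WT and 45.004, 43.5 and 45.7 FPKM in Mc4r KO, in the order of the replicates. Its groups overlapped too, with a log2 fold change of 0.026 (95% interval -0.23 to 0.28, limma adjusted p = 0.923). The signs of the small differences of Carhsp1, Ybx1 and Ybx3 turned under quantile normalization and with the mitochondrial share as a covariate, so no direction is given for them.

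Among 7 genes with a cold-shock domain, 5 passed the filter on low values. Apart from Csdc2, which is given no test, 0 of them were called, beside 0.46% of all genes tested. Ybx2, a Y-box protein of germ cells, had 6.81 ± 0.387 FPKM in WT and 9.06 ± 0.141 in Mc4r KO, with no overlap between the groups and a log2 fold change of 0.41 (limma adjusted p = 0.0808). Lin28a and Lin28b, embryonic inhibitors of let-7 microRNA processing, reached 1 and 8 reads at most in a library and were not tested. Non-overlapping groups were common here, at 26.4% of all genes tested, so that alone did not set a gene apart. As a share of the FPKM summed over these 7 genes, Csdc2 made up 2.81% ± 0.106 in WT and 7.39% ± 0.559 in Mc4r KO. Ybx1 made up 77.5% ± 1.61 and 75.05% ± 0.370, so their summed FPKM came mainly from Ybx1 in both groups.

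Rbm3 fell in the Mc4r KO hearts to less than 50% of its WT level, and it was the only one of the other 5 members called. Rbm3 (ENSMUSG00000031167, chrX:8138975-8145880 on the minus strand), a cold-induced protein known to support translation and the survival of cooled neurons, had 12.8, 11.8 and 10.8 FPKM in WT replicates 1, 2 and 3. In Mc4r KO replicates 1, 2 and 3 it had 6.32, 5.53 and 4.60 FPKM, and the groups lay far apart. The means of 11.8 ± 1.02 and 5.49 ± 0.860 FPKM put Mc4r KO at 46.4% of WT, with a log2 fold change of -1.10 (SE 0.14, 95% interval -1.42 to -0.78, limma adjusted p = 0.0355). Beside the 0.144% of all genes called lower, 108 of the 11297 genes with a mean of at least 1 FPKM had a lower log2 fold change. The reads were 851, 798 and 865 in WT and 461, 395 and 347 in Mc4r KO. A further 32 to 130 reads in each library were counted on 4 processed pseudogenes of Rbm3, and with these added the sums were 897, 831 and 995 in WT and 508, 427 and 389 in Mc4r KO, still without overlap. Rbm3os, which overlaps 2.001% of the gene on the other strand, had 4 reads at most.

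The fold of Rbm3 held more firmly than its call. Over all 18 alternatives the log2 fold change stayed between -1.30 and -0.91, but the call was lost in 9 of them. Among these were the fits without WT replicate 1, WT replicate 2 or Mc4r KO replicate 1, 2 or 3, with limma adjusted p of 0.191, 0.158, 0.103, 0.199 and 0.163 in that order. In the same order these fits called only 0, 0, 7, 2 and 0 of all genes. Without WT replicate 3, where 632 genes were called, the call of Rbm3 was kept at 0.0221. It was also lost with no filter on low values (limma adjusted p = 0.332), without the variance trend (0.120) and with the mitochondrial share as a covariate (0.249). These settings called 10, 21 and 2 genes. Limma voom on the recovered reads, which called 1.76% of all genes, kept the call of Rbm3 at 0.00329. The mitochondrial share and the cardiomyocyte marker sum given above also differed between the groups, as did the fibroblast sum, mainly through Dcn. Beyond the covariate fit, their part in the level of Rbm3 was not tested.

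Cirbp was lower in each Mc4r KO library than in any WT library, as were 12.4% of all genes tested, but did not pass the test. Cirbp (ENSMUSG00000045193, chr10:80165985-80172786 on the plus strand), the founding cold-inducible RNA-binding protein, which binds and stabilises RNAs including Clock and Txn1, had 12.2, 14.1 and 17.3 FPKM in WT replicates 1, 2 and 3. In Mc4r KO replicates 1, 2 and 3 it had 10.02, 9.38 and 10.99 FPKM, just under the lowest WT value. The means of 14.5 ± 2.59 and 10.1 ± 0.810 FPKM put Mc4r KO at 69.8% of WT, a log2 fold change of -0.50 (SE 0.14, 95% interval -0.83 to -0.17, limma adjusted p = 0.121). It was negative in all 18 alternatives, from -0.90 to -0.37, and called in none, with limma adjusted p from 0.0615 to 0.455. The exact permutation test gave a two-sided p of 0.1 for Cirbp and for Rbm3, the smallest that 3 against 3 allows, and 0.4, 0.9 and 0.5 for Ybx1, Ybx3 and Carhsp1. Any gene whose groups do not overlap receives that smallest p.

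Within a library, the levels of the cold-inducible genes relative to Carhsp1 fell in separate ranges. Carhsp1 differed little between the groups, so these ratios largely repeat the differences of Rbm3 and Cirbp themselves. The Rbm3 to Carhsp1 ratio of FPKM was 1.34, 1.07 and 0.948 across WT replicates 1 to 3 and 0.547, 0.4996 and 0.421 across Mc4r KO replicates 1 to 3. The Cirbp to Carhsp1 ratio was 1.27, 1.28 and 1.52 in WT and 0.866, 0.847 and 1.004 in Mc4r KO, in the same order. These ratios do not depend on how the libraries were scaled. The Rbm3 to Cirbp ratio was 1.06, 0.841 and 0.625 in WT and 0.631, 0.590 and 0.419 in Mc4r KO, so the groups overlapped. The exact permutation test gave a two-sided p of 0.1 for the Rbm3 to Carhsp1 and Cirbp to Carhsp1 ratios, the smallest it allows here, and 0.2 for the Rbm3 to Cirbp ratio. It also gave 0.1 for the ratio of Ybx3 to Ybx1, neither of which passed the test. That ratio was 0.179, 0.198 and 0.168 in WT and 0.162, 0.157 and 0.164 in Mc4r KO, so separate ranges alone did not set a ratio apart.

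**Figure D2:**
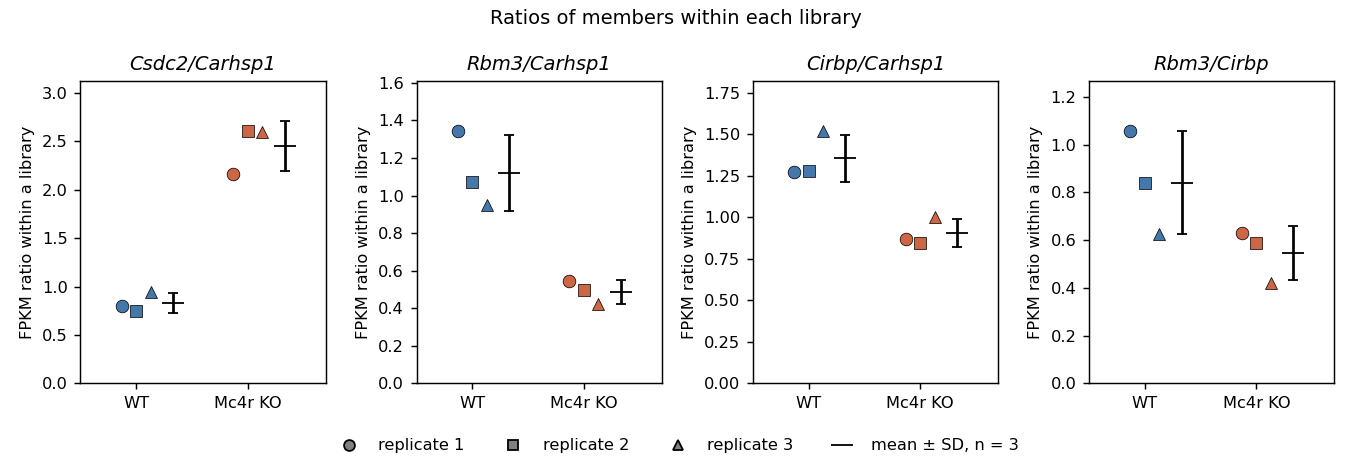
Ratio of the FPKM of a pair of genes within each library, for WT (blue) and Mc4r KO (orange), with marker shapes for replicates 1 to 3 and the mean ± SD (n = 3) beside each group. The Csdc2 to Carhsp1 ratio is 0.745 to 0.948 in WT and 2.16 to 2.60 in Mc4r KO, which largely restates the choice of Csdc2. Rbm3 and Cirbp relative to Carhsp1 are lower in Mc4r KO without overlap, and the Rbm3 to Cirbp ratio overlaps.

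Neither of the tested relatives of Cirbp and Rbm3 by their RNA recognition motif was called, beside 0.46% of all genes tested. Rbmx was separate between the groups while Rbmxl1 overlapped. Rbmx, which encodes the splicing protein hnRNP G, had 9.93 ± 0.668 FPKM in WT and 7.37 ± 0.424 in Mc4r KO, with a log2 fold change of -0.42 (limma adjusted p = 0.0871), while 12.4% of all genes tested were lower without overlap. Rbmxl1, a retrogene of Rbmx, had 6.83 ± 0.634 and 6.21 ± 0.222 FPKM (log2 fold change -0.13, limma adjusted p = 0.510), with a sign that turned with the mitochondrial covariate, and Rbmxl2, a retrogene of the testis, had 0 reads in each of the 6 libraries.

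Promoter windows from RefSeq (build GRCm38.p6, 250 bases before to 50 after a transcription start) were matched for 4 of the 6 members, Ybx1, Ybx3, Carhsp1 and Cirbp. Both strands were searched for TCCCCGCC, the mild cold responsive element described for Cirbp, and for ATTGG, the core of the Y box (CCAAT on the other strand). The first of these is in 5.38% of all 32851 windows and the second in 37.4%. The upstream of the 2 Cirbp windows, on the plus strand at chr10:80167589-80167888, is shown from 5′ to 3′ because it holds the letters of the cold element described for this gene. The cold element, which starts 247 bases before the transcription start, and the Y-box cores on each strand are in capitals.
Cirbp: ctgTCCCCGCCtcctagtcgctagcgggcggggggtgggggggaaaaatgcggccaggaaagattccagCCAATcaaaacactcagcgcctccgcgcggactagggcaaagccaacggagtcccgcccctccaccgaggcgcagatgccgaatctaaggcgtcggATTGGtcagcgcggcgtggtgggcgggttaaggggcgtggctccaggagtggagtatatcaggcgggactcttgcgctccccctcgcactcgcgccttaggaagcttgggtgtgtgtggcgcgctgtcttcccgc
The downstream Cirbp window held neither motif. The windows of Ybx3 and Carhsp1 held the cold element once each, and the FPKM of both genes overlapped between the groups. The Carhsp1 window also held 1 Y-box core and the Ybx3 window 0. The Ybx1 window held no cold element and 3 Y-box cores. The motifs did not overlap each other, and a match is a run of letters and not a measured binding site.

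The order of the members by FPKM differed between the groups. In WT it was Ybx1, Ybx3, Cirbp, Rbm3, Carhsp1 and Csdc2, and the ranges of each neighbouring pair among the last 4 overlapped. In Mc4r KO it was Ybx1, Ybx3, Csdc2, Carhsp1, Cirbp and Rbm3, and only the ranges of Carhsp1 and Cirbp overlapped. Csdc2, lowest of the 6 on average in WT, was thus the third in Mc4r KO, and Rbm3 was last there. Because Csdc2 was selected for its higher values in Mc4r KO, its move up the order only restates that choice.

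Profiles over the 6 libraries were compared by the root mean square difference of log2(FPKM + 0.1) after centring each gene on its mean, which describes these libraries and is no test. The closest pair of members was Ybx3 and Carhsp1, at 0.0738 log2 units, then Ybx1 and Ybx3 at 0.112, and the farthest was Csdc2 and Rbm3 at 1.40. Cirbp and Rbm3 were 0.412 apart, farther than Cirbp and Ybx3 at 0.271. Both Cirbp and Ybx3 were highest in WT replicate 3, while Rbm3 was lowest there among the WT libraries. Among 11296 other genes with a mean of at least 1 FPKM, the nearest to Csdc2 was Rab4a, a GTPase of endosome recycling, at 0.160, with 1.98 ± 0.430 FPKM in WT and 7.37 ± 0.251 in Mc4r KO. Tmem181b-ps, 4631405J19Rik, Gm49490 and Crybb1 followed at 0.170, 0.172, 0.188 and 0.191. Nearest to Rbm3, a search added after its values were seen, was mt-Rnr1, the mitochondrial small ribosomal RNA, at 0.108, with 2291 ± 334 FPKM in WT and 1196 ± 171 in Mc4r KO. Gm10154, Hmcn1, Nrep and Casc4 followed at 0.130, 0.136, 0.149 and 0.158.

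Lists of genes linked to temperature or to these proteins held no call. Only 0.46% of all genes tested were called, so 0 called does not set these short lists apart. The 6 splicing factors and kinases that respond to body temperature had a median of -0.017 on the log2 scale, 0 called and 1 at an unadjusted limma p under 0.05, a threshold that 20.9% of all genes passed. Clk1, a kinase of splicing factors that is more active in the cold, had 10.3 ± 0.510 FPKM in WT and 8.23 ± 1.09 in Mc4r KO (log2 fold change -0.33, limma adjusted p = 0.184), and its relative Clk3 had a log2 fold change of 0.20 (limma adjusted p = 0.444). The 12 heat-inducible genes had a median of 0.051 with 0 called and 2 at an unadjusted limma p under 0.05. Hsph1, a large heat-shock chaperone, had 4.20 ± 3.65 and 9.62 ± 2.89 FPKM (log2 fold change 1.65, limma adjusted p = 0.261), and Hspa1b, the inducible cytosolic heat-shock protein, had 2.15 ± 1.18 and 1.18 ± 0.172 (-0.63, limma adjusted p = 0.468). Both groups overlapped for each of these chaperones, which varied widely within WT.

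The 18 genes of stress granules and P-bodies, the RNA-protein bodies in which Ybx1, Cirbp and Rbm3 are found, had a median of 0.013 with 0 called. Of the 18, 8 were at an unadjusted limma p under 0.05, beside 20.9% of all genes tested. Of these 18, 5 were higher and 5 lower in Mc4r KO without overlap between the groups, beside 14.1% and 12.4% of all genes tested. Nufip2, a stress granule protein, had 8.66 ± 0.754 and 5.84 ± 0.107 FPKM (log2 fold change -0.56, limma adjusted p = 0.0579), and Eif4e, the cap-binding translation factor that Ybx1 competes with, had 26.5 ± 5.43 and 18.3 ± 0.460 (-0.51, limma adjusted p = 0.122).

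The 6 calcineurin genes, whose phosphatase acts on Carhsp1, had a median of -0.018 with 0 called. Of the 6, 2 were at an unadjusted limma p under 0.05, beside 20.9% of all genes tested. Without overlap between the groups 2 were higher and 2 lower in Mc4r KO, beside 14.1% and 12.4% of all genes tested. Rcan2, an inhibitor of the phosphatase, had 76.2 ± 7.47 and 102 ± 8.001 FPKM (log2 fold change 0.42, limma adjusted p = 0.105), and Ppp3ca, a catalytic subunit, had 7.87 ± 0.749 and 5.98 ± 0.227 (-0.39, limma adjusted p = 0.108). The 13 partners and bound RNAs of the members had a median of -0.087 with 0 called and 3 at an unadjusted limma p under 0.05, beside the same 20.9%. Of the 13, 10 had a negative log2 fold change and 3 a positive one. Without overlap 0 were higher and 5 lower in Mc4r KO, beside the same 14.1% and 12.4%. Ccnd1, the cyclin of early cell cycle entry whose promoter Ybx3 acts on, had 12.2 ± 0.717 and 8.73 ± 2.16 FPKM (log2 fold change -0.52, limma adjusted p = 0.186), and Txn1, the thioredoxin whose RNA Cirbp binds, had 35.9 ± 6.98 and 45.7 ± 3.43 (0.36, limma adjusted p = 0.215).

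**Figure D3:**
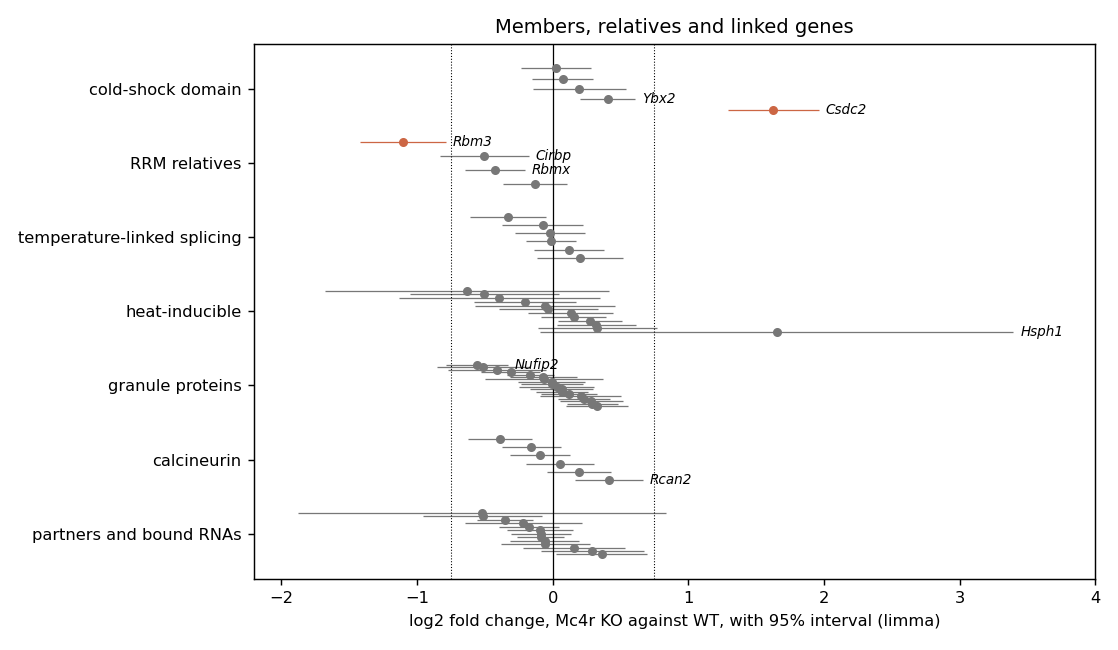
Log2 fold change of Mc4r KO against WT for every tested gene of the 7 lists, with the 95% interval from limma (bars) and dotted lines at -0.75 and 0.75. In orange are Csdc2 at 1.63, which chose the set, and Rbm3 at -1.10, which was called. The bar drawn for Csdc2 is a description and no test, because its values in these libraries chose it. Hsph1 at 1.65 has an interval that includes 0.

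**Figure D4:**
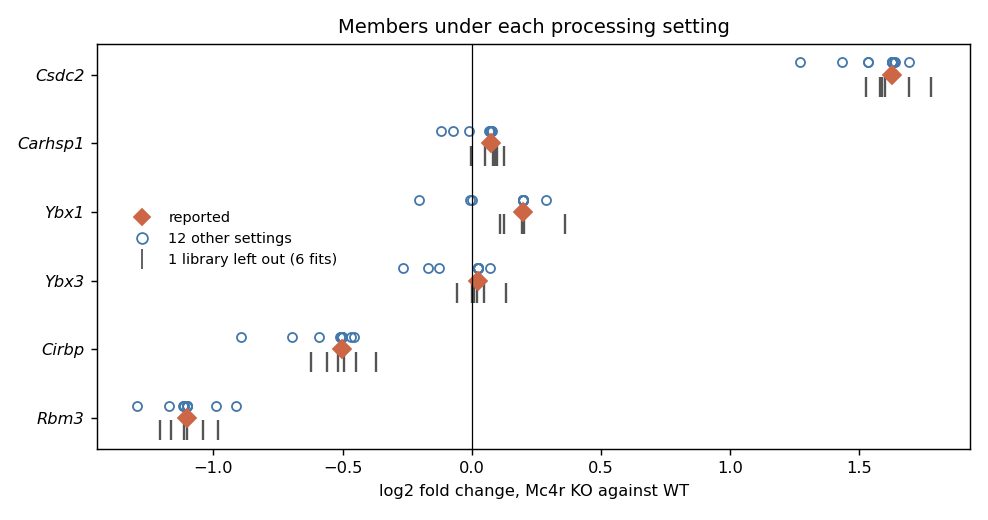
Log2 fold change of each member as reported (diamonds), under 12 other processing settings (circles) and with each of the 6 libraries left out in turn (ticks). Csdc2 stays between 1.27 and 1.78, Rbm3 between -1.30 and -0.91 and Cirbp between -0.90 and -0.37, while Carhsp1, Ybx1 and Ybx3 fall on both sides of 0.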

How the data were processed

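Polyadenylated RNA from 6 hearts was sequenced in paired ends. The authors removed low-quality reads, aligned the rest with HISAT2 (v2.0.5), to mm10 per the submitters' processing notes, assigned them to genes with featureCounts and ran DESeq2 for their own test. The authors deposited FPKM per gene and library, and all 6 columns of values matched a library by its label. Which annotation was used, and whether strand was, is not given in the sources used here. File positions and lengths of the members equalled those of GENCODE M21.

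FPKM are not counts, so log2(FPKM + 0.1) was fitted with limma 3.58.1 (R 4.3.3, data.table version 1.17.8, empirical Bayes trend, 3 against 3, no covariate, two-sided), over genes with a mean of at least 0.1 FPKM. The thresholds were an adjusted p of 0.05 and an absolute log2 fold change of 0.75, taken from the study, which does not state the base of its log. The script was tested on simulated data. At 14691076 to 16047003 reads on genes per library the members had 347 to 13088 reads each. Replicates are separate mice, 1 library each.

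The members and lists were chosen with earlier results of these data known. The lists hold cold-shock domain genes, relatives of Cirbp and Rbm3, temperature-linked splicing genes, heat-inducible genes, granule proteins, calcineurin genes, partners and bound RNAs, and markers of cardiomyocytes, atrium, skeletal muscle, fibroblasts, endothelium, smooth muscle, macrophages, adipocytes and neurons. Some results for single genes are left out here. Named were the members, their 2 families, the genes called in another list (where fewer than 2 were called, up to 2 with the largest absolute log2 fold change at a mean of at least 1 FPKM) and the 5 genes nearest to Csdc2. The 5 genes nearest to Rbm3 were added later. Other settings tried were a pseudocount of 1 or 0.01, no filter, a mean of at least 1 FPKM, protein-coding genes only, quantile normalization, scaling outside the mitochondrial chromosome, no variance trend, weighted libraries, a block for the replicate number, a covariate for the mitochondrial share, voom on whole reads recovered from FPKM, and each library left out.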

Additional observations from a re-analysis of the deposited data

How the results depend on the processing

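The number of genes called, 83, depended on the setting. It was 44 with a pseudocount of 1, 10 with no filter, 147 at a mean of at least 1 FPKM, 204 among protein-coding genes, 49 after quantile normalization, 41 (16 higher, 25 lower) when scaled outside the mitochondrial chromosome, 21 without the trend, 435 with array weights, 2 with the mitochondrial share as a covariate and 317 with voom. With 1 library left out it ran from 0 (without WT replicate 1, WT replicate 2 or Mc4r KO replicate 3) to 632 (without WT replicate 3). Same-numbered WT and Mc4r KO libraries did not deviate together (correlations of -0.14, 0.0074 and -0.082 over 11297 genes), so the numbers do not pair the mice. With the replicate number as a block 11 genes were called, and Rbm3, at the same log2 fold change of -1.10, had a limma adjusted p of 0.0712. Csdc2 was 1.27 and Rbm3 -0.91, no longer called, with the mitochondrial covariate. Rbm3 was also not called at -1.10 with no filter or without the trend, and it ran from -1.21 to -0.98 with 1 library left out. The sign turned for Ybx1 (-0.0080 after quantile normalization, -0.20 with the covariate), Ybx3 (-0.13 after quantile normalization, -0.17 outside the mitochondrial chromosome, -0.27 with the covariate, -0.057 to 0.13 with 1 library left out), Carhsp1 (-0.013, -0.12, -0.074 and -0.0015 to 0.12 in the same order), and, with the covariate, Rbmxl1 (0.011) and Clk3 (-0.032). The causes were not tested. Depth limits Lin28a, Lin28b, Rbmxl2 and Mc4r, which had 8 reads or fewer in each library.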

Other observations

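The marker lists that the text above does not describe gave no call, beside 0.46% of all genes tested. Endothelial markers summed to 120 to 154 FPKM in WT and 127 to 151 in Mc4r KO, smooth muscle markers to 42.5 to 73.1 and 39.0 to 112, and macrophage markers to 21.1 to 28.4 and 17.6 to 21.9. Adipocyte markers summed to 0.466 to 0.876 FPKM in WT and 0.0283 to 0.223 in Mc4r KO, without overlap, and neuron markers to 0.308 to 1.04 and 0.599 to 0.897. The adipocyte sum in WT was mainly Cfd, with 5, 11 and 9 reads in WT and 3, 0 and 0 in Mc4r KO. Adipoq and Plin1 had 3 reads at most in a library and were not tested. These counts are too low to compare adipocyte content, and 26.4% of all genes tested did not overlap. The part of these cell types in the levels of Csdc2, Cirbp and Rbm3 was not tested.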
